A study of Rattus norvegicus with 6 samples.

Results

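The motile cilia genes of ependymal cells were followed in cells cultured from rat brainstem. The cells came from spontaneously hypertensive rats (SHR), an inbred line whose blood pressure rises with age, or from Wistar Kyoto rats (WKY), the normotensive line it is usually compared with. The set was given as 10 gene names, and its members were all probes of the series table whose single platform gene symbol is one of these names. By that rule 8 genes had a probe (Foxj1, Tekt1, Tekt2, Rsph1, Tmem212, Drc12, Mycbpap and Dnah1), with 11 probes among the 33849 of the table, of which 16753 carry 1 gene symbol, for 12198 genes. Dnai1 and Spag6 had no probe under those symbols. Spag6 is also an older symbol of Spag6l, a near copy with 2 probes, and Spag6l is given beside the members without being counted among them. One-colour CodeLink arrays measured 3 samples of each strain, each made from RNA of 3 pooled culture dishes. No treatment is named, and the age and sex of the animals and the days in culture were not stated in the labels. The design text calls the 3 samples of a strain independent biological replicates without naming litters or cultures, and p-values here rest on the spread among these pools only, which may in part be technical.

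Motile cilia are the beating hairs of ependymal cells, which line the ventricles of the brain and move cerebrospinal fluid. Their core, the axoneme, is a ring of doublet microtubules around a central pair, driven by dynein arms and coordinated by radial spokes and the nexin-dynein regulatory complex. The forkhead factor Foxj1 switches on many of these genes, together with factors of the RFX family. Epithelial cells of the choroid plexus carry motile cilia as well. In RNA from a mixed culture, fewer cells of a type and less RNA per cell cannot be told apart.

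The cilia genes were readily measured in all 6 pools. In the median over genes, the highest and lowest pools of a strain lay farther apart than the means of the strains. Of the 8 genes, 7 had a higher mean in SHR and 1, Drc12, a higher mean in WKY (brightest probe of a gene, which is used for every count over genes). The median difference was 0.71 (log2, SHR minus WKY; 0.26 without SHR 3 and 1.18 without SHR 2), against -0.01 over all 33249 probes tested, of which 48.4% lay above 0. No member passed an adjusted p of 0.05 in limma, where 0.0% of all probes did (smallest adjusted p 0.053). At an unadjusted p under 0.05 in limma 1 of the 8 genes was higher in SHR and 0 were lower, beside 3.65% of all probes higher and 4.01% lower, 7.65% (2545 probes) in all. The members and the direction of some of them were known when the set was put together, so the counts are given as a description.

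Foxj1, the regulator of the set, measured 2531, 1038 and 2604 intensity units in SHR pools 1, 2 and 3 and 1703, 641.9 and 889.8 units in WKY pools 1, 2 and 3. SHR 1 and SHR 3 were the highest, but WKY 1 lay above SHR 2, so the strains overlapped. In log2 units the mean was 10.89 ± 0.75 (SD, n = 3) in SHR and 9.95 ± 0.72 (SD, n = 3) in WKY, a difference of 0.94 ± 0.49 (SE, limma adjusted p = 0.689). Without SHR 2 the difference was 1.37 and without WKY 2 it was 0.62.

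Tekt1 and Tekt2 encode tektins, filament proteins of the doublet microtubules. The Tekt1 probe measured 12999, 7410 and 17544 units in SHR 1, 2 and 3 and 11158, 6170 and 7786 units in WKY 1, 2 and 3. The Tekt2 probe measured 1997, 1016 and 3666 units in SHR and 1713, 913.2 and 1089 units in WKY. In both genes SHR 3 was the highest pool and WKY 2 the lowest, with SHR 2 below WKY 1 and WKY 3. The difference was 0.55 ± 0.37 (SE) for Tekt1 and 0.71 ± 0.49 (SE) for Tekt2, with limma adjusted p of 0.728 and 0.737.

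Rsph1 encodes a protein of the radial spoke head. Its signal was 12911, 7780 and 17466 units in SHR and 11689, 7153 and 8717 units in WKY, the same order of pools as for the tektins. The strains differed by 0.42 ± 0.33 (SE, limma adjusted p = 0.763). Dnah1, a heavy chain of the inner dynein arms, measured 4636, 1738 and 4740 units in SHR and 2999, 1540 and 1883 units in WKY, again in that order of pools and with a difference of 0.71 ± 0.45 (SE, limma adjusted p = 0.721). The second Dnah1 probe was dim, between 61.95 and 135.6 units on 5 arrays, with an entry not above 0 on SHR 1 that was left out of the fit. Its difference was -0.08 ± 0.39 (SE) over 2 SHR and 3 WKY values.

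Tmem212, a membrane protein gene used as an ependymal marker, measured 1958, 1146 and 4376 units in SHR and 2487, 850.8 and 971.5 units in WKY. Here WKY 1 exceeded SHR 1 as well as SHR 2, and the difference was 0.75 ± 0.60 (SE, limma adjusted p = 0.765). Spag6l, from a gene family of the central pair of microtubules, measured 9233, 3407 and 10679 units in SHR and 5593, 2386 and 3890 units in WKY at its brighter probe. The other probe of Spag6l gave 2915, 1273 and 5785 units in SHR and 2886, 778.4 and 1068 units in WKY. The 2 probes gave differences of 0.90 ± 0.51 and 1.05 ± 0.68 (SE), neither past the threshold (limma adjusted p = 0.697 and 0.724). Signal from its near copy Spag6 cannot be told apart here.

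Mycbpap, named for the binding of its protein to the Myc-binding protein Mycbp, was the 1 member whose SHR values all lay above the WKY values (6.35% of all probes), and no member had all of them below (7.48% of all probes). At its brighter probe it measured 1340, 1163 and 1470 units in SHR and 642.8, 417.1 and 507.9 units in WKY. The difference was 1.36 ± 0.20 (SE), 2.56-fold, and the probe ranked at place 46 among all probes by unadjusted p (0.000345, limma adjusted p = 0.244). The other Mycbpap probe gave 323.6, 304.2 and 325 units in SHR and 398, 301.4 and 385.1 units in WKY. The strains overlapped there, with a difference of -0.18 ± 0.15 (SE). The difference seen at one Mycbpap probe was therefore not seen at the other.

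Drc12, a part of the nexin-dynein regulatory complex, went against the rest of the set. One probe measured 5740, 1861 and 10146 units in SHR and 16735, 4737 and 8452 units in WKY, and the other 6177, 1990 and 11786 units in SHR and 12134, 3220 and 5636 units in WKY. WKY 1 was the highest pool and SHR 2 the lowest at both probes, where SHR 3 and WKY 2 held these places in the other 7 genes (brightest probe). The differences were -0.88 ± 0.71 and -0.20 ± 0.75 (SE), neither past the threshold (limma adjusted p = 0.77 and 0.954), and the second turned to 0.50 without SHR 2 and to 0.30 without WKY 1.

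**Figure D1:**
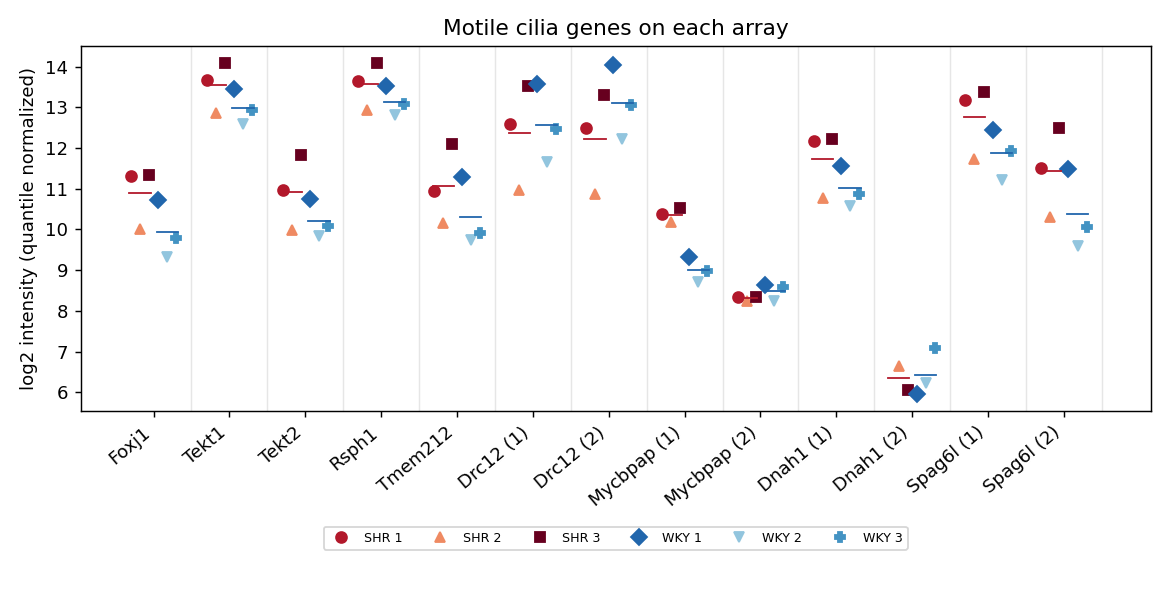
Log2 quantile normalized intensity (vertical axis) of each probe of the 8 cilia genes and of Spag6l on the 6 arrays. Symbols are arrays, short lines are strain means, and numbers in brackets tell probes of one gene apart. SHR 2 lies low and WKY 1 high in its strain at most probes, so that the strains overlap everywhere but at the first Mycbpap probe.

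The order of the pools within each strain was shared by the set. In all 8 genes SHR 3 exceeded SHR 1 and SHR 1 exceeded SHR 2, and in all 8 WKY 1 exceeded WKY 3 and WKY 3 exceeded WKY 2 (brightest probe). Both orders were seen together at 7.12% of the 31327 probes valid on all 6 arrays. The orders were taken from the values of these 8 genes, so their own count is a description. Over the 8 genes the median log2 difference was -1.39 for SHR 2 minus SHR 3 (2.62-fold) and 0.93 for WKY 1 minus WKY 2 (1.91-fold). The median strain difference was 0.71 in the same log2 units. It sets means of 3 pools against each other, while the other values set the highest against the lowest pool of a strain. SHR 2 was below WKY 1 in 7 of the 8 genes and above WKY 2 in 7 of 8. The SD within strains was above the median of all probes (0.241) in 8 of 8 genes and ranked between the 52.2 percentile, for Mycbpap, and the 99.2 percentile, for Drc12.

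Over the 6 pools the log2 values of Foxj1, Tekt1, Tekt2, Rsph1, Tmem212 and Dnah1 correlated at Pearson r between 0.89 and 1.0 in all 15 pairs. Mycbpap correlated with these 6 genes at r between 0.66 and 0.80 and Drc12 at r between 0.41 and 0.58. These are descriptions over 6 arrays, and all genes share the RNA and the normalization of each array. Tekt1 and Rsph1 went together most closely (r = 1.0 after rounding).

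Setting each gene against the others within an array takes out what that gene shares with them. Where a gene shares little with them, the step adds their spread and strain difference instead. The level of each gene was taken relative to the mean log2 signal of Foxj1, Tekt1, Tekt2, Rsph1, Tmem212 and Dnah1 on the same array, leaving the gene itself out, and these 6 were chosen after the values were seen. For the brighter Drc12 probe the relative level was 0.37, -0.26 and 0.69 in the SHR pools and 2.15, 1.40 and 1.93 in the WKY pools, and the strains did not overlap. The mean was 0.27 ± 0.48 (SD, n = 3) in SHR and 1.83 ± 0.39 (SD, n = 3) in WKY, a difference of -1.56 (exact permutation p = 0.10, two-sided, the smallest that 3 against 3 can give). The other Drc12 probe gave 0.48, -0.16 and 0.91 in SHR and 1.69, 0.84 and 1.34 in WKY. There SHR 3 just exceeded WKY 2, and the difference was -0.88 (exact permutation p = 0.20). Over the alternatives the difference lay between -1.77 and -1.29 for the first probe and between -1.13 and -0.60 for the other.

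For the brighter of the 2 Mycbpap probes the relative level was -1.73, -0.94 and -2.09 in SHR and -2.55, -2.11 and -2.13 in WKY. SHR 3 lay just above WKY 2, so that the separation was narrow, and the difference was 0.68 (0.35 without SHR 2, exact permutation p = 0.10, the smallest possible). The other Mycbpap probe gave -3.78, -2.87 and -4.27 in the SHR pools and -3.24, -2.58 and -2.53 in the WKY pools. These overlapped, with a difference of the opposite sign, -0.86 (exact permutation p = 0.20). In SHR the SD of the brighter Mycbpap probe was 0.17 before this step and 0.59 after it. For the other probe it was 0.05 before and 0.71 after. The relative levels of Mycbpap therefore also carry the spread and strain difference of the reference genes. For the 6 other genes and the 2 Spag6l probes the strains overlapped, with differences between -0.31 for Rsph1 and 0.37 for the dimmer Spag6l probe and exact permutation p of 0.20 or more. None of these tests could pass 0.05 with 3 pools a strain, and the genes were set apart after their values were seen, so the relative levels are a description.

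**Figure D2:**
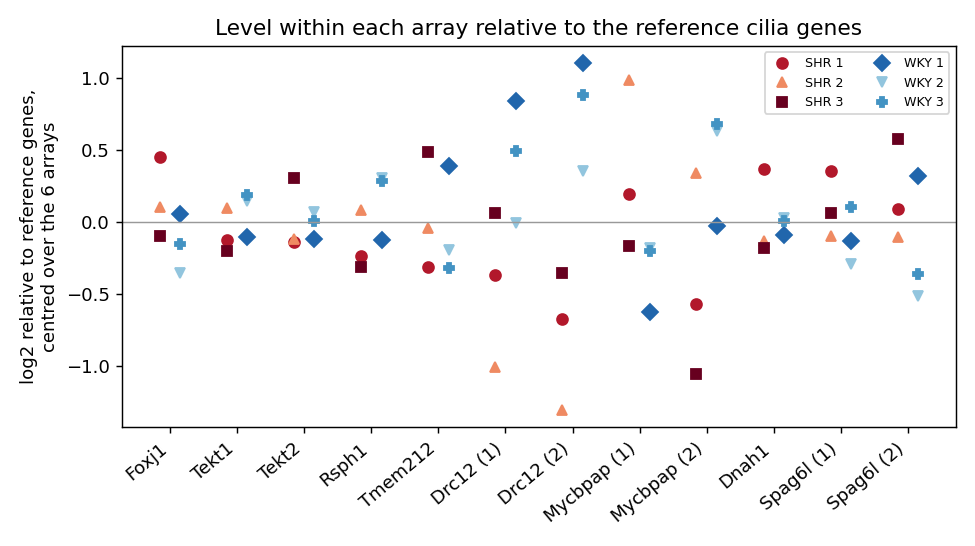
Log2 level of each probe relative to the mean of 6 cilia genes on the same array, the gene itself left out, and centred over the 6 arrays (vertical axis). Symbols are arrays, numbers in brackets tell probes of one gene apart, and the dim Dnah1 probe is not drawn. The mean SHR minus WKY difference is -0.88 and -1.56 at the Drc12 probes and 0.68 and -0.86 at the Mycbpap probes. The 6 reference genes were chosen because they moved together, so their small spread is built in.

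Promoters of the listed genes were read because RFX factors bind the X-box of ciliary promoters. RefSeq windows of the 250 bases before the start (GRCr8) were at hand for 6 of the 8 genes, in 7 windows. Foxj1 and Rsph1 had none. Windows were also at hand for Spag6l and for Spag6 and Dnai1, the names without a probe. The half-site GTTGCC, searched on both strands, was found in 3 of the 7 windows, those of Tekt1, Tekt2 and Drc12, and in that of Spag6l. The Spag6 window held it between 121 and 116 and between 85 and 80 bases before the start, and the Dnai1 window lacked it. The half-site was found in 9.89% of all 33469 windows and in 34.8% of the 46 windows of the wider motile cilia lists described next. The forkhead motif GTAAACA, searched in the same way and not overlapping the half-site in its letters, was found in 0 of the 7 windows, 8.7% of the windows of the wider lists and 3.21% of all. A match is a description of these letters only. The windows of Tekt1, Tekt2, Drc12 and Spag6l, genes with a probe, are shown 5′ to 3′ on the strand of the gene, with the half-site in capitals. It lies between 39 and 34 bases before the start in Tekt1 (chr10:57479122-57479371, minus strand) and between 29 and 24 bases before it, on the reverse strand, in Tekt2 (chr5:143907725-143907974, minus strand). In Drc12 (chr8:53474409-53474658, plus strand) it lies farther out, between 163 and 158 bases, and in Spag6l (chr11:97677590-97677839, plus strand) between 64 and 59 bases.
Tekt1: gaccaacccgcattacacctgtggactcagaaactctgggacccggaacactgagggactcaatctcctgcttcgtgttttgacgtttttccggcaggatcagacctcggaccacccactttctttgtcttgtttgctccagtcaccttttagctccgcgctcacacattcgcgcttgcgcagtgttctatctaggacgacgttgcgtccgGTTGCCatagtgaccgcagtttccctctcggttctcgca
Tekt2: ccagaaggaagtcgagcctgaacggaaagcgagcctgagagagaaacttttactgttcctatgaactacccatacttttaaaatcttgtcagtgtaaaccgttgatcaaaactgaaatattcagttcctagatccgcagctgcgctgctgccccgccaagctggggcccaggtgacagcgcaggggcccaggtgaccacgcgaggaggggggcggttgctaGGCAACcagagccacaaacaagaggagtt
Drc12: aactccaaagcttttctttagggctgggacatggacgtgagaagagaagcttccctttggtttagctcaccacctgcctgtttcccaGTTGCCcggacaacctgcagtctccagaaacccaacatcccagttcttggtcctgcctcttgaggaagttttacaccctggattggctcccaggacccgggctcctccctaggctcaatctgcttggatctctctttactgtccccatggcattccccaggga
Spag6l: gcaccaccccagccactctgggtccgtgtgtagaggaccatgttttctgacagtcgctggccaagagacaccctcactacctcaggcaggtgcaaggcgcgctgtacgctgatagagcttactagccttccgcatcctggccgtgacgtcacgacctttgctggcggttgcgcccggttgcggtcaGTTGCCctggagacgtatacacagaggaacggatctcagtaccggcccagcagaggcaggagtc

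Other genes of the motile cilium were listed from general knowledge. Of 52 genes tested in 4 lists, 46 had a higher mean in SHR, with a median difference of 0.49 (0.27 without SHR 3 and 0.84 without SHR 2), beside 48.4% of all probes above 0. At an unadjusted p under 0.05 in limma 5 were higher (3.65% of all probes) and 0 lower, and none passed adjusted over all probes. Of the 50 measured on all arrays, 31 showed both pool orders of the members (7.12% of all probes). Their profiles correlated with that of Foxj1 at a median r of 0.94 over the 6 arrays, beside -0.034 over all probes.

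Among dynein arm genes with their docking and assembly factors, 12 of 14 were above 0 with a median of 0.44. Dnaaf3, a factor that assembles dynein arms before they enter the cilium, measured 2393, 1129 and 2611 units in SHR and 1235, 1008 and 976.7 units in WKY (0.85 ± 0.33, SE, limma adjusted p = 0.639). Radial spoke, central pair and nexin link genes had 12 of 13 above 0 and a median of 0.60. Ccdc39, which sets the repeat length of the axoneme, was their leading gene, with 911.8, 485.8 and 1020 units in SHR and 347.2, 330.5 and 353.1 units in WKY. Its SHR values lay above all WKY values at this probe (1.16 ± 0.29, SE, limma adjusted p = 0.511), and the other Ccdc39 probe gave 1.13 ± 0.44 (SE) with overlap. Rsph10b, a radial spoke gene, differed by 1.0 ± 0.38 (SE) and Dnajb13, a chaperone of the radial spoke, by 0.73 ± 0.29 (SE), and neither passed (limma adjusted p = 0.623 and 0.643).

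Tektins and proteins inside the doublet microtubules had 13 of 14 genes above 0 and a median of 0.57, and none had an unadjusted p under 0.05. The smallest p belonged to Efhb (1.07 ± 0.48, SE) and Cfap20 (0.55 ± 0.27, SE), with limma adjusted p of 0.655 and 0.678. Regulators of the multiciliated programme had 9 of 11 above 0 and a median of 0.36. Plk4, the kinase that starts centriole formation, had 674.9, 660.9 and 962.2 units in SHR and 553.2, 541.6 and 393.7 units in WKY, without overlap (0.62 ± 0.22, SE, limma adjusted p = 0.587). Ccno, a cyclin needed for centriole amplification, differed by 0.58 ± 0.31 (SE, limma adjusted p = 0.69). The X-box factors Rfx2 (0.45 ± 0.31, SE) and Rfx3 (0.26 ± 0.31, SE, and -0.06 without WKY 1) did not pass either, and Rfx3 was dim, between 85.97 and 181.9 units.

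**Figure D3:**
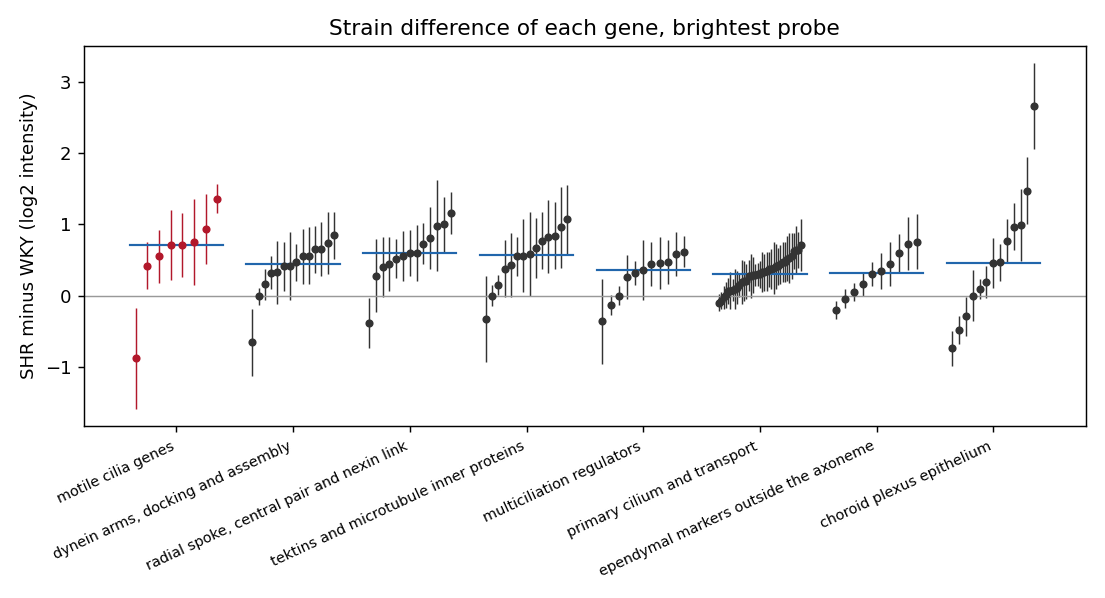
SHR minus WKY difference in log2 intensity (vertical axis) for the brightest probe of each gene, by list, with bars of 1 SE from limma and a horizontal line at each median. The medians are 0.71 for the 8 motile cilia genes and between 0.36 and 0.60 for the 4 wider lists. No gene shown passed an adjusted p of 0.05.

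Some genes are also used by cells with a single, non-motile cilium. Of 37 genes of intraflagellar transport, the BBSome and the transition zone, 34 were above 0, with a median of 0.30, and 2 were higher and 0 lower at an unadjusted p under 0.05 in limma, a share near the 3.65% and 4.01% of all probes. The transition zone gene Rpgrip1l (0.64 ± 0.25, SE) and Dync2li1, a chain of the retrograde transport dynein (0.63 ± 0.25, SE), were these 2 (limma adjusted p = 0.626 and 0.638). Ift88, a core subunit of the transport trains, differed by 0.44 ± 0.27 (SE). The genes of all lists most like Foxj1 over the 6 pools were Ift80 (r = 0.995), B9d2 (r = 0.993), Arl6 (r = 0.99) and Cd24 (r = 0.989), of which the first 3 belong to this list. Across all probes 4.43% correlated with Foxj1 above 0.9, and 23 of the 37 genes did. Both pool orders of the members were seen in 15 of the 37 (40.5%, beside 7.12% of all probes). Adcy3, an adenylyl cyclase of neuronal cilia, and the polycystin gene Pkd1 are mentioned with their values already known. Their r with Foxj1 was negative, at -0.834 and -0.554. Both were nearly flat over the 6 pools, at 583.6 to 672.6 units for Adcy3 and 3304 to 3807 units for Pkd1 (brightest probe). The strain differences were -0.1 ± 0.12 and -0.07 ± 0.12 (SE).

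Array scores, the mean of a list's genes each centred on its mean over the 6 arrays, put the pools in one picture. The motile cilia genes scored 0.45, -0.53 and 0.94 in SHR against 0.33, -0.78 and -0.41 in WKY, and SHR 2 fell among the WKY pools. The wider motile lists together scored 0.37, -0.34 and 0.68 in SHR against 0.13, -0.54 and -0.30 in WKY. The primary cilium list scored 0.30, -0.24 and 0.41 in SHR against 0.11, -0.37 and -0.20 in WKY. In each of these, SHR 3 stood highest and WKY 2 lowest.

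Ependymal markers outside the axoneme, many of them shared with astrocytes, had 8 of 10 genes above 0 and a median of 0.32. None had an unadjusted p under 0.05 in limma, and Cd24 and Prom1 are named for the smallest p. The 2 genes below 0 were Vim (-0.20 ± 0.12, SE) and Aqp4 (-0.04 ± 0.13, SE, brightest probe). All SHR values of Vim lay below all WKY values (7.48% of all probes). Cd24, a surface protein of ependymal cells, measured 16679, 11090 and 18498 units in SHR and 12995, 7995 and 9520 units in WKY (0.60 ± 0.27, SE, limma adjusted p = 0.655). Prom1, a membrane protein of ciliated and progenitor cells, differed by 0.73 ± 0.37 (SE, limma adjusted p = 0.683). Scores of these genes reached 0.20, -0.10 and 0.37 in SHR against 0.08, -0.35 and -0.21 in WKY.

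Markers of other cell types moved beside the cilia genes, and their part in the result was not tested. Of 13 choroid plexus genes tested (15 listed), 9 had a higher mean in SHR and 4 a lower one, with 4 higher and 2 lower at an unadjusted p under 0.05 in limma (3.65% and 4.01% of all probes). Scores over the 11 measured on all arrays were 0.15, 0.25 and 0.54 in SHR against -0.31, -0.46 and -0.16 in WKY, without overlap. Their summed signal was 18592 to 24000 units in SHR and 13332 to 14161 units in WKY. Enpp2 alone gave 7894 to 9637 units of it on each array, with a strain difference of 0.09 ± 0.14 (SE). Of the defining genes Kl and Otx2 were dim, at 27.6 to 203.1 units for Otx2, while none was at 0 on all arrays. Aqp1 and Prlr were dim as well. The 4 genes higher at that unadjusted threshold were Ttr (2.66 ± 0.60, SE), Otx2 (1.47 ± 0.47, SE), Sostdc1 (0.97 ± 0.33, SE) and Kcnj13 (0.77 ± 0.30, SE). None passed (limma adjusted p = 0.468, 0.572, 0.585 and 0.638, in that order). Their r with Foxj1 over the 6 pools was 0.284, 0.119, 0.883 and 0.465. Ttr, the transthyretin gene of the choroid plexus, measured 2916, 5745 and 3459 units in SHR and 278, 580 and 1419 units in WKY. SHR 2, where the cilia genes were lowest in that strain, was the highest pool for Ttr, and WKY 1, where they were highest, was the lowest. Folr1, the folate receptor gene in the same list and chosen after its values were seen, had 5182, 2354 and 8570 units in SHR and 3476, 1702 and 2275 units in WKY, the order of the cilia genes. The 2 lower genes were dim. Clic6, a chloride channel gene, had 50.02 and 58.38 units in SHR 2 and 3 and 94.01, 69.54 and 112.3 units in WKY (-0.74 ± 0.24, SE, limma adjusted p = 0.587), with an entry not above 0 on SHR 1 that was left out. Kcne2, a potassium channel subunit gene, differed by -0.48 ± 0.19 and -0.42 ± 0.16 (SE) at its 2 probes, with all SHR values below all WKY values at both (limma adjusted p = 0.641 and 0.626).

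Meningeal fibroblast genes, 13 tested of 15 listed, had 10 with a higher mean in SHR and 3 with a lower one (Igf2, Thy1 and Col1a1). At an unadjusted p under 0.05 in limma 6 were higher and 0 lower (3.65% and 4.01% of all probes). Their scores were 0.05, 0.42 and 0.59 in SHR against -0.25, -0.27 and -0.53 in WKY. Their summed signal was 34862 to 44307 units in SHR and 25839 to 34962 units in WKY, with a slight overlap. Both pool orders of the cilia genes were seen in 0 of the 13, near the 7.12% of all probes. Aldh1a2, a retinoic acid enzyme of the meninges, had the smallest p of this list and differed by 1.49 ± 0.14 (SE, limma adjusted p = 0.0853). It passed 0.05 under 3 alternatives, with an offset of 50 (0.0257), without the dimmest 25% of probes (0.0205) and with a trend and robust prior (0.0053). Slc13a4 differed by 1.79 ± 0.28 (SE) at its brightest probe and by -0.59 ± 0.30 and -0.17 ± 0.20 (SE) at its other probes. Oligodendrocyte lineage genes, 11 tested of 12 listed, ran largely the opposite way to the cilia genes, with a median r with Foxj1 of -0.70. Their scores were -0.51, 0.26 and -0.69 in SHR against 0.24, 0.47 and 0.24 in WKY. WKY 1 and WKY 3 thus scored alike, where the cilia genes scored 0.33 and -0.41. Mbp, Mog and Mobp were highest in WKY 1 (brightest probe), and Pdgfra had a positive r with Foxj1 (0.376). Their summed signal was 64079 to 114825 units in SHR and 109098 to 125634 units in WKY. The scores of 9 astrocyte genes stayed between -0.08 and 0.10, with 4 genes above 0 and 5 below. Single genes of that list moved in opposite directions. Aldh1l1 differed by -0.45 ± 0.16 (SE, limma adjusted p = 0.61). Sox9 differed by 0.49 ± 0.23 (SE, limma adjusted p = 0.666) and correlated with Foxj1 at r = 0.959. The part of these cells in the levels of the cilia genes was not tested.

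**Figure D4:**
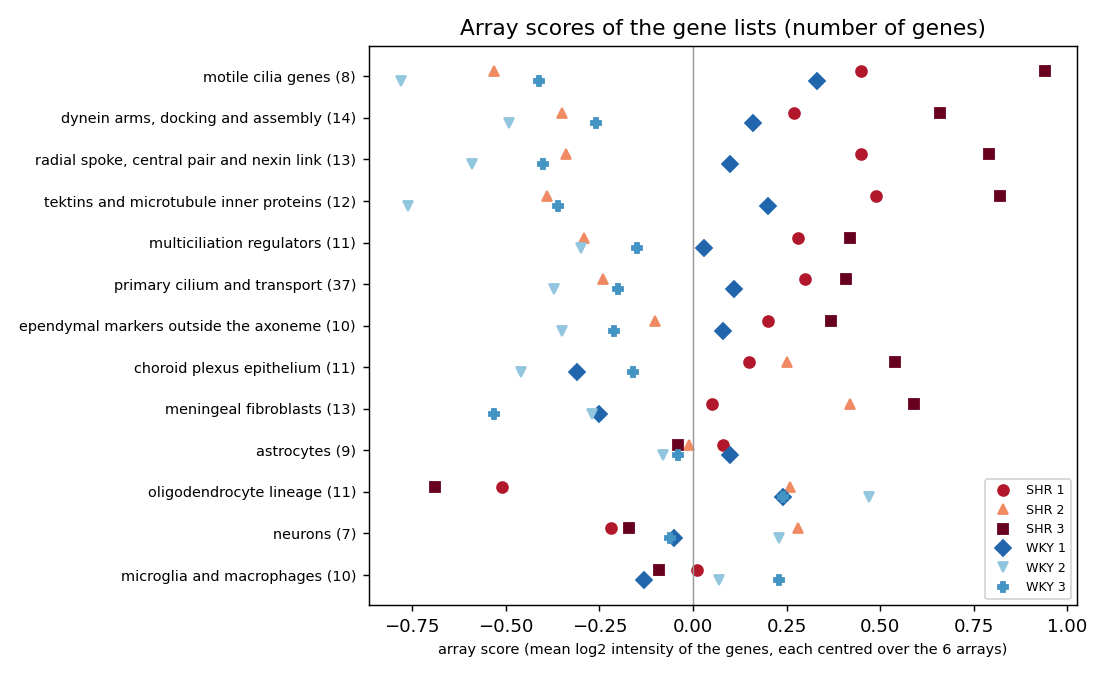
Array scores (horizontal axis, mean log2 intensity of a list's genes, each centred over the 6 arrays) by list, with the number of genes in brackets. Symbols are arrays, red for SHR and blue for WKY. The cilia lists share one order of pools with SHR 2 within or near the WKY range, and the choroid plexus and meningeal lists separate the strains. The oligodendrocyte list runs largely the opposite way to the cilia lists, but WKY 1 and WKY 3 score alike in it.

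Pearson correlations between arrays, of log2 values across probes, were 0.969 to 0.979 within strains and 0.964 to 0.977 between strains. Probes with an unadjusted p under 0.05 in limma numbered 3496 without SHR 2 and 3524 without WKY 1, against 2545 with all arrays and 1784 to 2263 without any other array. Median signals of the deposited per-sample values lay between 461.5 and 608.3 units over values above 0. Gfap, the filament gene of astrocytes, measured 12914 to 18963 units over the 6 arrays. The labelled brain region was not checked. With 3 arrays a strain, their number limits precision throughout.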

How the data were processed

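Expression was measured with single-colour CodeLink rat arrays in 3 SHR and 3 WKY samples. Spot intensity was read with background subtracted by the CodeLink software, spots dimmer than 2 SD over the negative controls were dropped, and quantile normalization was applied by the authors, per the labels. No software version or genome build is named in the labels. The deposited series table holds quantile normalized intensity, with a median of 494.5 on every array. The titles of the samples say normalized, but the medians of the deposited per-sample values differ between arrays. Whether these values were normalized in another way is not stated. On each array 615 entries of the series table were not above 0. They were treated as missing, and no offset was used before log2. Whether a spot was above the negative controls cannot be seen from either table.

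A probe was tested if one strain had 3 values and the other 2 or more (33249 probes, with 600 left untested). The two-sided strain test was limma 3.58.1 in R 4.3.3 (lmFit, eBayes), and p-values were adjusted over all tested probes by Benjamini-Hochberg. The steps were tested on simulated data. Counts and medians over genes use the brightest probe of a gene. Symbols came from the platform annotation and, by Entrez identifier, the RefSeq gene table of GRCr8, where 16724 probes were found. Probes with several symbols (165) or none (16931) were not named. Promoter sequences are from RefSeq (GRCr8). Figures were drawn with matplotlib 3.10.9.

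The members and gene lists were chosen with earlier results of these data known. Named genes were every member probe, up to 3 genes per direction of each other list at an unadjusted p under 0.05 (otherwise the 2 of smallest p), a few fixed markers and the 4 genes most like Foxj1. Not all genes that this rule takes from the lists of other cell types are printed. Alternatives covered the source and normalization of the values, an offset, probe filters, the variance prior, array weights, the threshold, the replicate number as a block and leaving out each array.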

Additional observations from a re-analysis of the deposited data

How the results depend on the processing

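With each source and normalization tried, and with the other alternatives listed under processing, 7 of the 8 cilia genes stayed higher in SHR, or 8 of 9 with Spag6l counted. The median difference of the members was between 0.57 and 0.89 under the alternatives that keep all arrays and between 0.26 (without SHR 3) and 1.18 (without SHR 2) when one was left out. For the wider motile cilia lists it lay between 0.27 (without SHR 3) and 0.84 (without SHR 2). No member passed the adjusted threshold under any alternative. Over all probes the count past it was 0 with each normalization and without each array, 5 with array weights, 5 if probes needed a value on all arrays, 13 at an adjusted p of 0.10, 17 after an offset of 50, 18 if the dimmest 25% were dropped and 28 with a robust prior and intensity trend. The cause of these shifts was not tested, beyond the smaller number of probes tested where probes were left out.

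Of 203 values of member and Spag6l probes under alternatives, 3 changed direction. They were the dimmer Drc12 probe (-0.78 to 0.50 when an array was left out, above 0 without SHR 2 and, at 0.30, without WKY 1) and the dim Dnah1 probe (-0.31 to 0.25, above 0 without WKY 3). Of other named genes, Rfx3 lay between -0.06 (without WKY 1) and 0.44 when an array was left out. Gfap, at -0.05, lay between -0.20 and 0.08 (above 0 without SHR 3 and, at 0.01, without WKY 1). It turned to 0.11 with the per-sample intensities as deposited and 0.02 with array weights. A replicate block by number left the member median at 0.71, and 0 probes passed (2798 at an unadjusted p under 0.05). Of the 13 member and Spag6l probes 4 then had an unadjusted p under 0.05, Foxj1 (0.94 ± 0.25, SE), Mycbpap, Dnah1 and Spag6l, with a smallest limma adjusted p of 0.572. Arrays of one number deviated from their strain means with correlations of 0.0011, 0.22 and -0.129, and SHR 3 correlated best with WKY 1 (0.268), so the numbers were not taken to pair the samples.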

Other observations

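Ccdc78, a gene of centriole amplification in the list of multiciliation regulators, was chosen after its values were seen. It measured 2399, 1045 and 4151 units in SHR and 5199, 1683 and 2517 units in WKY. As for Drc12, WKY 1 was the highest pool and SHR 2 the lowest, and the difference was -0.36 ± 0.60 (SE). The docking complex gene Odad1 differed little between pools, at 8796, 9531 and 8799 units in SHR and 9055, 9449 and 8738 units in WKY, where most dynein arm genes moved with Foxj1.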
